A study of Homo sapiens with 4 samples.

Results

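The ID genes encode a family of 4 small helix-loop-helix proteins, and all of them were found in the deposited expression table by their symbols ID1, ID2, ID3 and ID4, each on 1 row, among 58365 rows in all. RNA was measured by RNA-seq at day 8 of a stepwise hematopoietic differentiation of H1, a long-established line of human embryonic stem cells (hESCs). Per the labels, the cells received activin A (40 ng/ml) and BMP4 (50 ng/ml) for 2 days, then VEGF (40 ng/ml) and bFGF (50 ng/ml) for 3 days, and then the same VEGF and bFGF for 3 more days with or without SB431542. By their titles, 2 libraries were from DMSO-treated cells (DMSO) and 2 from SB431542-treated cells (SB), numbered 1 and 2 in each group. Per the study the sequenced cells were those positive for CD31, a surface protein of endothelium encoded by PECAM1, but the labels name no such collection. H1 is a single line, and nothing in the labels says whether the libraries of a group came from separate differentiations, so p-values measure the spread between these libraries only.

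ID proteins carry the helix-loop-helix domain of basic helix-loop-helix (bHLH) factors but lack the basic region that contacts DNA. They bind the widely expressed E proteins, encoded by TCF3, TCF4 and TCF12, and keep them from pairing with lineage factors such as TAL1. ID1, ID2 and ID3 are classic immediate targets of BMP signaling, in which type I receptors phosphorylate SMAD1, SMAD5 and SMAD9. SB431542 blocks the type I receptors of TGFβ, activin and nodal (TGFBR1, ACVR1B and ACVR1C) and acts far more weakly on those of BMP. In endothelium ID1 and ID3 are known for their part in vessel growth, and in blood ID2 is known for its part in lymphoid and myeloid fate.

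The ID genes lie on 4 different chromosomes (GRCh38, counted from 1). ID1 (ENSG00000125968.8) spans 31605283 to 31606515 of chromosome 20 on the plus strand, and ID2 (ENSG00000115738.9) spans 8678845 to 8684453 of chromosome 2 on the plus strand. ID3 (ENSG00000117318.8) spans 23557918 to 23559794 of chromosome 1 on the minus strand, and ID4 (ENSG00000172201.11) spans 19837386 to 19840684 of chromosome 6 on the plus strand. All 4 are protein-coding genes in GENCODE 29. Their transcripts were distinct enough to be told apart: of the stretches of 50 bases in their GENCODE transcripts, 0 were shared between the members. For ID2 0.651% of 2150 stretches were shared with another gene, the pseudogene AC104849.1, whose row held at most 0.420 FPKM.

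Promoter sequence is shown for ID1, the most abundant member, and for ID4, the least abundant one, which also stood apart in the comparison of the groups. Both are from RefSeq on GRCh38.p14, plus strand, 5′ to 3′, with the CCAAT motif (or its reverse complement ATTGG) and the TATA motif TATAAA (or TTTATA) in capitals. For ID1 the bases from chr20:31605039-31605282 are given and for ID4 those from chr6:19837120-19837369, which in both cases start 250 bases before the RefSeq start site and stop before the first annotated exon.
ID1: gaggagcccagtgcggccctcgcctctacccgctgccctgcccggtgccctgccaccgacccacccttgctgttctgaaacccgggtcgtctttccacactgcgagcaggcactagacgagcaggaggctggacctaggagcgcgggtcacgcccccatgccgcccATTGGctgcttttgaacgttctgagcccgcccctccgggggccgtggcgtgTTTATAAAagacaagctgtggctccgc
ID4: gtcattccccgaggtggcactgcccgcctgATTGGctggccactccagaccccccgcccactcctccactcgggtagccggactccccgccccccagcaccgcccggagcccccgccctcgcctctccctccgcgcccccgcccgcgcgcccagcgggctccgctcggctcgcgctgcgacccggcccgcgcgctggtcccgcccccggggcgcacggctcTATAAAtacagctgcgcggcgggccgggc
The windows of ID2 and ID3 are not printed, since 202 and 250 of their 250 bases lie in exons of longer GENCODE transcripts. A CCAAT motif on either strand was found in 3 of the 4 windows, beginning 84 bases before the start of ID1, 172, 122 and 78 bases before that of ID2 and 220 bases before that of ID4. It is present in 32% of 35116 promoter windows of this length. TATAAA on either strand was found 31 bases before the start of ID1, where the reverse reading TTTATA overlaps it, and 29 bases before that of ID4, and is present in 10.7% of all windows. The E-box CAGCTG, a site of the kind that E proteins bind, began 205 bases before the start of ID2 and 21 bases before that of ID4 (14% of all windows), while CACCTG (17.5%) and CACGTG (6.34%) were in 0 of the 4. The letters GGCGCC and GTCTAGAC, which SMAD proteins are known to bind, were likewise in 0 of the 4 windows, against 16.4% and 0.182% of all windows. Only these 250 bases were searched, so sites farther from the start would not be seen. GGGCGG, on either strand, was in the windows of ID1, ID2 and ID4 (42.6% of all), and the window of ID3 held 0 of the 8 motifs searched.

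ID1, ID2 and ID3 were lower in both SB libraries than in both DMSO libraries, while ID4 overlapped between the groups. ID1 was the most abundant member in every library, followed by ID3, ID2 and ID4. Levels are given as FPKM (fragments scaled to transcript length and to library size). A comparison of FPKM between genes is rough here, since differences between replicates went with GC content. In these bulk samples, fewer cells that make an RNA and less of that RNA per cell cannot be told apart.

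In DMSO replicates 1 and 2, the ID1 level was 470.25 and 505 FPKM, and in SB replicates 1 and 2 it was 179 and 187 FPKM. All values below are given in this order. Its mean was 488 ± 24.6 FPKM with DMSO and 183 ± 5.61 FPKM with SB431542 (SD, n = 2 each), which is 62.5% lower. The groups did not overlap, and the gap between them was far wider than the spread within either. On the log2(FPKM + 1) scale the fold change was -1.41 (SE 0.15, 95% interval -1.80 to -1.02, limma adjusted p 0.0803), and within replicate numbers 1 and 2 it was -1.39 and -1.43. Among the 14909 genes tested, those with a mean of at least 1 FPKM in at least 1 group, the level of ID1 ranked 146 and 134 from the top in the DMSO libraries and 450 and 374 in the SB libraries.

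ID3, the next most abundant member, stood at 135 and 148 FPKM with DMSO and at 77.6 and 75.8 FPKM with SB431542. Its mean was 141 ± 9.10 against 76.7 ± 1.28 FPKM (SD, n = 2 each), which is 45.7% lower, with no overlap between the groups. The log2 fold change was -0.87 (SE 0.16, 95% interval -1.27 to -0.47, limma adjusted p 0.187), and -0.79 and -0.95 within replicate numbers.

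ID2 stood at 110.2 and 88.6 FPKM with DMSO and at 55.4 and 54.7 FPKM with SB431542. Its mean was 99.4 ± 15.3 against 55.1 ± 0.505 FPKM (SD, n = 2 each), which is 44.6% lower, and here too the groups did not overlap. The log2 fold change was -0.83 (SE 0.18, 95% interval -1.30 to -0.36, limma adjusted p 0.246), and -0.98 and -0.69 within replicate numbers. Relative to its mean, ID2 varied more between the DMSO libraries than ID1 or ID3 did.

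ID4 stood at 12.4 and 5.36 FPKM with DMSO and at 8.44 and 4.46 FPKM with SB431542. The libraries of replicate 1 were higher than those of replicate 2 in both groups, and the groups overlapped. The log2 fold change was -0.36 (SE 0.46, limma adjusted p 0.900), with a 95% interval of -1.55 to 0.83, and within replicate numbers it was -0.51 and -0.22. Without DMSO replicate 1 the value was 0.18, and without DMSO replicate 2 it was -0.90.

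**Figure D1:**
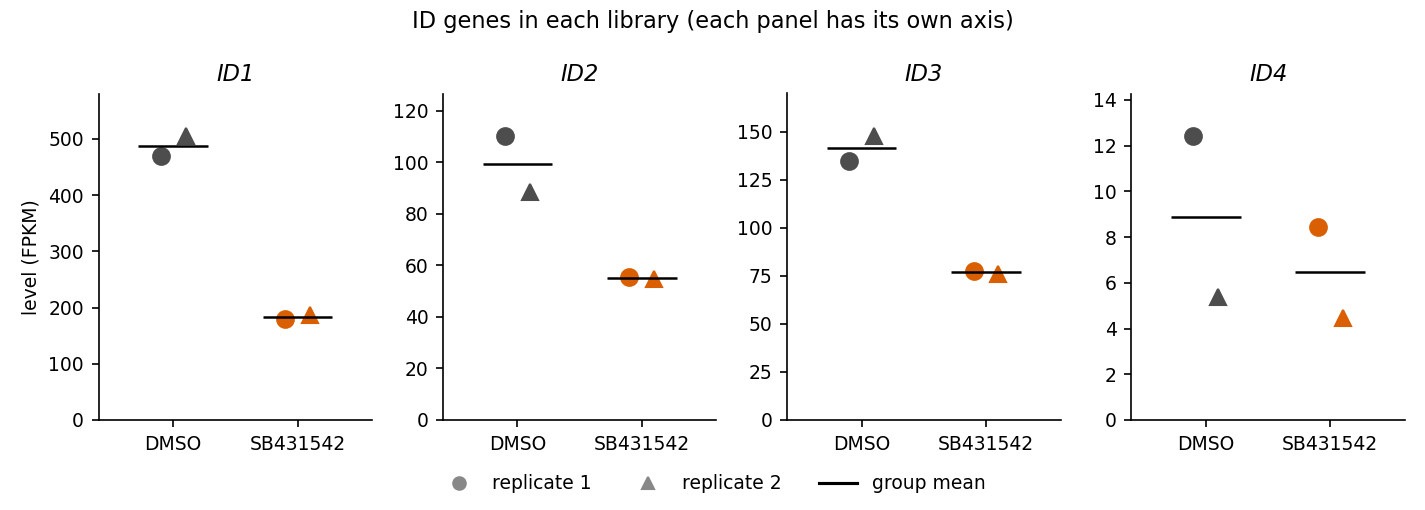
Level of each ID gene in FPKM, 1 panel per gene with its own axis from 0, for the DMSO (grey) and SB431542 (orange) libraries. Circles are replicate 1, triangles replicate 2 and lines the group means (n = 2). ID1, ID2 and ID3 are lower in both SB libraries than in both DMSO libraries, while ID4 (12.4 and 5.36 against 8.44 and 4.46 FPKM) overlaps.

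None of the ID genes (0 of 4) passed the adjustment over all tested genes at a threshold of 0.05 with group as the only term. Calls with the replicate number as a block differed and are given in the last section. With group alone, the adjustment was passed by 20 genes, or 0.134% of those tested, of which 4 were higher (0.0268%) and 16 lower (0.107%) with SB431542. A correction for GC content, added after the data were seen, gave 131 such genes, 47 higher and 84 lower. At an unadjusted p under 0.05, 3 of the 4 ID genes were lower (ID1 0.000288, ID3 0.00283 and ID2 0.00639 in limma), against 5.16% of all tested genes (9.96% in either direction). In 3 of 4 both SB libraries lay below both DMSO libraries, against 16% of all tested genes (21.5% lay above, 37.5% either way). Within both replicate numbers 4 of 4 were lower, against 30.6% of all tested genes lower and 40.9% higher. By log2 fold change, counted from the lowest, ID1 ranked 131, ID3 466, ID2 513 and ID4 1836 of 14909. The median of the 4 was -0.85, beside a median of 0.04 over all tested genes.

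The summed level of the ID genes was 728 and 747 FPKM in the DMSO libraries and 320.4 and 322 FPKM in the SB libraries, 56.0% lower in replicate 1 and 56.9% lower in replicate 2. ID1 made up 64.6% and 67.6% of this sum with DMSO and 55.8% and 58.1% with SB431542. ID3 made up 18.5% and 19.8% with DMSO and 24.2% and 23.6% with SB431542. The remaining members also took larger shares in the SB libraries when compared within a replicate number: ID2 held 15.1% and 11.9% with DMSO against 17.3% and 17.0% with SB431542, and ID4 held 1.71% and 0.717% against 2.63% and 1.39%.

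ID1 was thus lower with SB431542 relative to the other abundant members as well. The ratio of ID1 to ID3 was 3.49 and 3.42 with DMSO and 2.30 and 2.46 with SB431542, and that of ID1 to ID2 was 4.27 and 5.70 with DMSO and 3.23 and 3.42 with SB431542. Neither ratio overlapped between the groups. For each of them a two-sided exact permutation test gave p = 0.33, which is the smallest value that 2 libraries against 2 allow. The ratio of ID3 to ID2 overlapped between the groups, at 1.22 and 1.67 against 1.4 and 1.39 (exact permutation p = 1).

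Among the E proteins, which ID proteins bind, 0 of 3 genes had an unadjusted limma p under 0.05 (9.96% of all tested genes in either direction). The groups overlapped in all 3, while they did not overlap in 37.5% of all tested genes. With only 3 genes, these counts do not set the E proteins apart from all tested genes. TCF4 stood at 46.0 and 48.5 FPKM with DMSO and at 34.2 and 47.7 FPKM with SB431542 (log2 fold change -0.22, 95% interval -0.78 to 0.34, limma adjusted p 0.853). TCF12 stood at 20.8 and 31.2 against 25.1 and 27.4 FPKM, with a log2 fold change of 0.04 (95% interval -0.59 to 0.66, limma adjusted p 0.989) that was -0.012 under quantile normalization, -0.0045 under upper-quartile scaling and -0.026 after a correction for GC content. TCF3, which encodes the E proteins E12 and E47, stood at 300.2 and 106 FPKM with DMSO and at 252 and 112 FPKM with SB431542. It separated the libraries by replicate number and not by treatment (log2 fold change -0.08, 95% interval -1.71 to 1.55), and within replicate numbers 1 and 2 the differences were -0.25 and 0.09.

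Relative to each E protein gene, the summed ID level was lower in the SB library of each replicate number. The ratio to TCF4 was 15.8 and 15.4 with DMSO and 9.37 and 6.75 with SB431542, and the ratio to TCF12 was 34.9 and 23.9 against 12.8 and 11.7, both without overlap. To TCF3 it was 2.42 and 7.06 against 1.27 and 2.87, and to the sum of the E protein genes 1.98 and 4.03 against 1.03 and 1.72. The last of these ratios was 48.0% and 57.3% lower with SB431542 in replicates 1 and 2. These are ratios of RNA levels and not of proteins, and for TCF4, TCF12 and the sum the exact permutation test again gave its smallest p of 0.33.

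**Figure D2:**
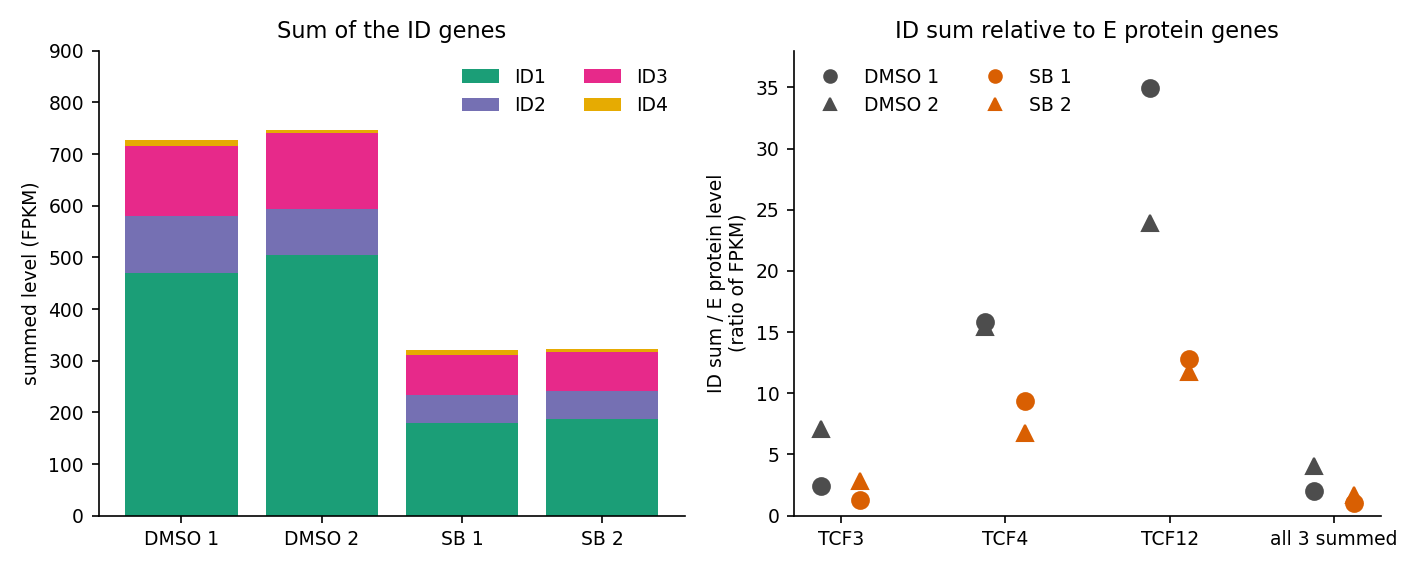
Left, summed level of the ID genes in FPKM in each library, stacked by gene, which is 728 and 747 with DMSO and 320.4 and 322 with SB431542. Right, this sum divided by the level of TCF3, TCF4, TCF12 or all of them together (ratio of FPKM, axis from 0), where circles are replicate 1, triangles replicate 2, grey DMSO and orange SB431542; within each replicate number the SB library is lower for every partner.

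Other bHLH genes were described by lists. Of 26 listed class II factors, the lineage-restricted partners of E proteins, 10 passed the filter on low values. Of these, 2 were lower and 0 higher at an unadjusted p under 0.05 (5.16% and 4.8% of all tested genes), and 0 passed the adjustment. The median log2 fold change was -0.10, but it was 0.16 without DMSO replicate 1, 0.08 without SB replicate 2, -0.33 without DMSO replicate 2 and -0.29 without SB replicate 1. The lowest were HAND1, a factor of heart and extraembryonic mesoderm (11.6 and 11.1 against 2.34 and 1.98 FPKM, log2 fold change -1.97, limma adjusted p 0.0646), and TAL2 (2.47 and 2.89 against 1.10 and 0.724 FPKM, -0.95, limma adjusted p 0.271). The highest were the blood factors LYL1 (98.8 and 70.7 against 134.6 and 97.0 FPKM, 0.45) and TAL1 (45.6 and 38 against 56.4 and 51.8 FPKM, 0.37), with limma adjusted p of 0.719 and 0.622. TAL1 did not overlap between the groups, and LYL1 did. The list of 12 HES and HEY genes also held related bHLH genes such as BHLHE40. Several of its genes are repressors downstream of Notch or BMP. Of the 12, 8 were tested, with 3 lower and 0 higher at an unadjusted p under 0.05 (background 5.16% and 4.8%), 0 past the adjustment and a median of -0.52. This median was -0.26 without DMSO replicate 1 and -0.34 over the 6 genes that passed a filter of 5 FPKM. HEY2 (21.2 and 22.2 against 6.07 and 6.17 FPKM, log2 fold change -1.67) and HES7 (-1.12) were the lowest, and HES6 (0.43) and BHLHE40 (0.02) the highest.

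Genes that E proteins or ID proteins are known to control went both ways, and a link to the ID levels was not tested. Of 14 listed, 8 were tested, with 2 lower and 2 higher at an unadjusted p under 0.05 (background 5.16% lower and 4.8% higher) and 1 past the adjustment. That gene was THBS1, which encodes the angiogenesis inhibitor thrombospondin 1 and is known as a gene that ID1 represses. It rose with SB431542, from levels of 17.2 and 16.1 to 78.9 and 71.6 FPKM (log2 fold change 2.11, limma adjusted p 0.0463). Without any 1 of the libraries its limma adjusted p was 0.149 to 0.228. PTCRA was next (0.86, limma adjusted p 0.367), at 1.47 FPKM or less in every library. CDKN1A, which encodes the cell cycle inhibitor p21 and is activated by E proteins, was at 97.2 and 89.5 against 56.9 and 55.9 FPKM (-0.72, limma adjusted p 0.245). CDKN2B was the lowest (-0.89), at 1.29 FPKM or less. Of 6 genes for ID protein turnover and for the repressor ATF3, 1 had an unadjusted p under 0.05 (9.96% of all tested genes in either direction). This was the ubiquitin ligase gene SMURF2 (18.4 and 23.9 against 10.6 and 11.2 FPKM, log2 fold change -0.88, limma adjusted p 0.249). WDR48 (-0.10) was the next lowest, and COPS5 (0.24) and USP1 (0.17), the gene of a deubiquitinase that stabilizes ID proteins, were the highest.

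On the input side of the BMP pathway, the 95% intervals of the log2 fold changes of BMP2, BMP4, BMP6, ENG and BMPR2 lay below 0, while those of the tested type I receptors and of the SMADs all held 0. Of 12 BMP ligand genes 5 were tested, of which 3 were lower and 0 higher at an unadjusted p under 0.05 (5.16% and 4.8% of all tested genes). Their median was -0.73, and it was -0.22 over all 12 with no filter, -1.17 with a pseudocount of 0.1 and -1.44 for the 1 gene left by a filter of 5 FPKM. BMP4 stood at 17.7 and 14.4 FPKM with DMSO and at 5.49 and 5.04 FPKM with SB431542 (log2 fold change -1.44, SE 0.18, limma adjusted p 0.0983), close in size to ID1. BMP6 stood at 7.13 and 3.33 against 2.06 and 1.08 FPKM (-1.23, limma adjusted p 0.402), and BMP2 at 2.62 and 1.89 against 1.16 and 0.742 FPKM (-0.73, limma adjusted p 0.438). In each of these the groups did not overlap. GDF7 (0.21) and BMP7 (-0.33) were the highest, and BMP10 and GDF2, ligands of the endothelial receptor ACVRL1, were among the 7 that did not pass the filter.

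Of 9 BMP receptor genes 8 were tested, with 2 lower and 0 higher at an unadjusted p under 0.05 (5.16% and 4.8% of all tested genes) and 0 past the adjustment. ENG, the co-receptor endoglin of endothelium, stood at 64.2 and 47.9 FPKM with DMSO and at 17.8 and 14.7 FPKM with SB431542 (log2 fold change -1.72, limma adjusted p 0.0986). BMPR2, the type II receptor, stood at 9.26 and 12.9 against 5.91 and 6.92 FPKM (-0.69, limma adjusted p 0.411). The type I receptor genes had smaller differences. ACVRL1, the most abundant of them, stood at 69.0 and 66.1 against 58.4 and 60.9 FPKM (-0.18, 95% interval -0.58 to 0.22), ACVR1 at 6.45 and 7.45 against 6.78 and 7.61 FPKM (0.05, 95% interval -0.41 to 0.50) and BMPR1A at 6.89 and 10.4 against 5.49 and 9.53 FPKM (-0.20, 95% interval -1.04 to 0.64). The co-receptor TGFBR3 was at 0.21, the type II receptors ACVR2A and ACVR2B were at -0.07 and 0.06, and BMPR1B did not pass the filter.

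Of the SMADs that carry the BMP signal, 0 of 4 were at an unadjusted p under 0.05 (9.96% of all tested genes in either direction). Both SB libraries lay below both DMSO libraries in 2 of 4, SMAD4 and SMAD9, and above them in 0 (16% and 21.5% of all tested genes). Within both replicate numbers 3 of 4 were lower and 0 higher (30.6% and 40.9% of all tested genes). SMAD5 stood at 14.7 and 17.8 against 14.2 and 15.3 FPKM (log2 fold change -0.13, 95% interval -0.59 to 0.34), and SMAD1 at 9.15 and 7.37 against 8.73 and 9.35 FPKM (0.12, 95% interval -0.35 to 0.60). The shared SMAD4 was at -0.07 (95% interval -0.47 to 0.34). SMAD9, itself a BMP target, was low throughout, at 1.36 and 1.55 against 0.762 and 0.724 FPKM (-0.49, limma adjusted p 0.566). Among the receptors that SB431542 blocks, TGFBR1 was at 0.02 and ACVR1B at -0.06 (95% intervals -0.65 to 0.68 and -0.50 to 0.37), ACVR1C did not pass the filter, and TGFBR2, the type II receptor that pairs with TGFBR1, was at 0.41.

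**Figure D3:**
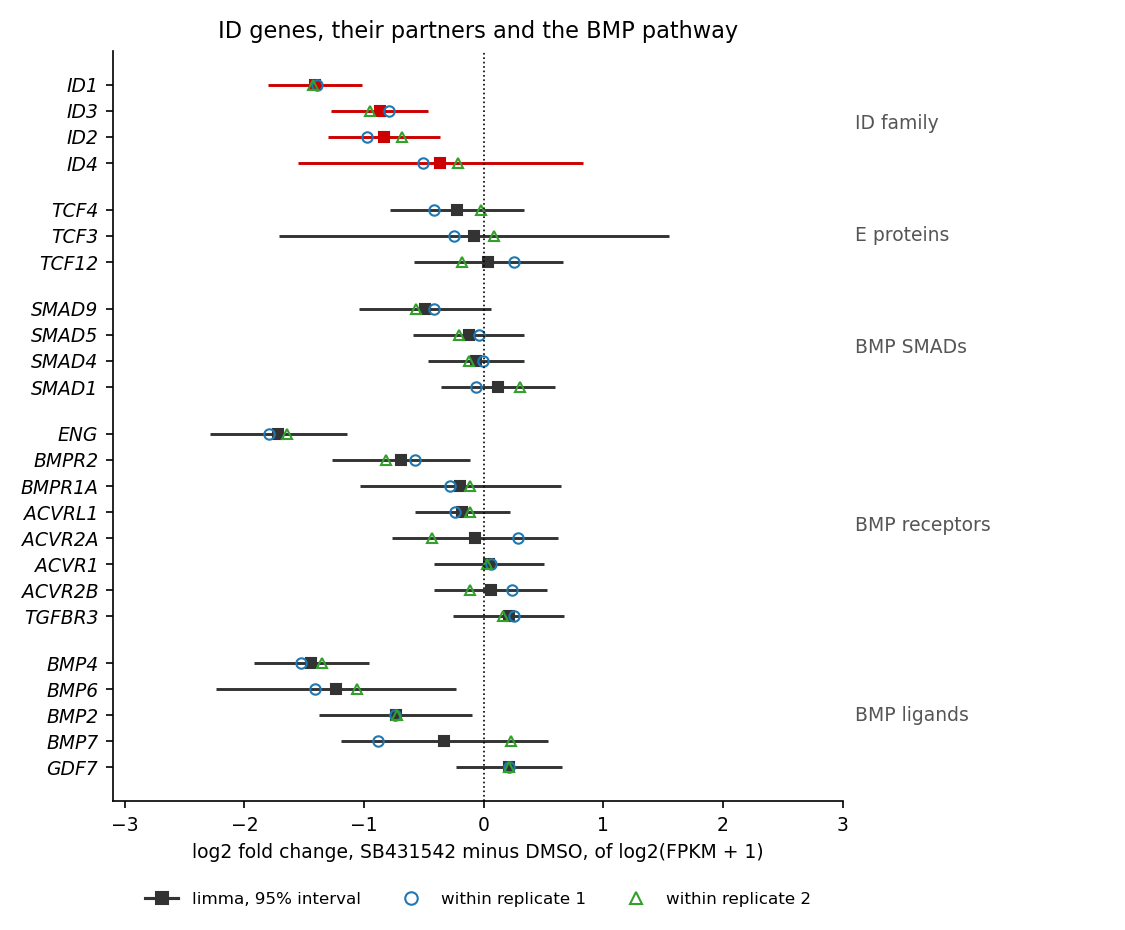
Log2 fold change (SB431542 minus DMSO, log2(FPKM + 1) scale) of the ID genes (red), E proteins, BMP SMADs, BMP receptors and BMP ligands that passed the filter. Squares and lines are limma estimates with 95% intervals (n = 2 each), open circles and triangles the differences within replicate numbers 1 and 2. ID1 (-1.41), ENG (-1.72) and BMP4 (-1.44) lie farthest to the left, and the interval of ID4 reaches from -1.55 to 0.83.

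Secreted antagonists and other targets were then described in the same way. Of 14 BMP antagonist genes 8 were tested, with 4 lower and 0 higher at an unadjusted p under 0.05 (5.16% and 4.8% of all tested genes) and a median of -0.55. The median depended on low genes, at -0.11 with no filter or with a filter of 5 FPKM and -0.97 with a pseudocount of 0.1. SOST, the gene of the BMP and WNT antagonist sclerostin, fell from 24.9 and 20.8 to 1.24 and 1.01 FPKM (log2 fold change -3.49, limma adjusted p 0.0232) and was the 1 gene of the list past the adjustment, with a limma adjusted p of 0.0652 to 0.157 without any 1 library. NOG, the gene of noggin, was next (2.32 and 1.46 against 0.190 and 0.144 FPKM, -1.29, limma adjusted p 0.217), while FSTL3 (0.18) and NBL1 (-0.01) were the highest.

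Of 20 other BMP targets 16 were tested. Of these 9 were lower and 0 higher at an unadjusted p under 0.05 (5.16% and 4.8% of all tested genes), both SB libraries lay below both DMSO libraries in 13 (16% of all tested genes), and 0 passed the adjustment. Their median log2 fold change was -0.73, beside -0.85 for the ID genes, but the order of these medians depended on the pseudocount. With a pseudocount of 0.1 the middle ID genes were ID2 (-0.84) and ID3 (-0.88), and the median of the other BMP targets was -1.04. The latter median was -0.59 with no filter. The inhibitory SMAD genes SMAD6 (372 and 162 against 66.9 and 30.5 FPKM, -2.41, limma adjusted p 0.259) and SMAD7 (29.3 and 19.6 against 7.23 and 3.4 FPKM, -2.05, limma adjusted p 0.193) were the lowest, and TBX3 (0.03) and GATA3 (-0.06) the highest. Targets of SMAD2 and SMAD3, which carry the signal of the blocked receptors, had a lower median. The 17 listed symbols stand for 16 genes, since CTGF and CCN2 are the same gene. Tested were 15, with a median of -1.70 that ran from -1.88 to -1.42 over the alternatives. Of these 9 were lower and 1 higher at an unadjusted p under 0.05 (5.16% and 4.8% of all tested genes), and 1 passed the adjustment. That was TGFBI (29.7 and 31.0 against 4.10 and 4.93 FPKM, -2.51, limma adjusted p 0.0365, and 0.137 to 0.182 without any 1 library), followed by COL1A1 (-2.46), while LEFTY1 (1.19) was the highest. SMAD7 is on both lists. Of the other BMP targets, ENG, SMAD9, HEY1 and HAND1 also stand on lists above, and COL1A1 is also a mesenchymal marker. The counts of these lists are therefore not separate from each other. The lists were chosen with earlier results of these data known, and a difference between them was not tested.

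**Figure D4:**
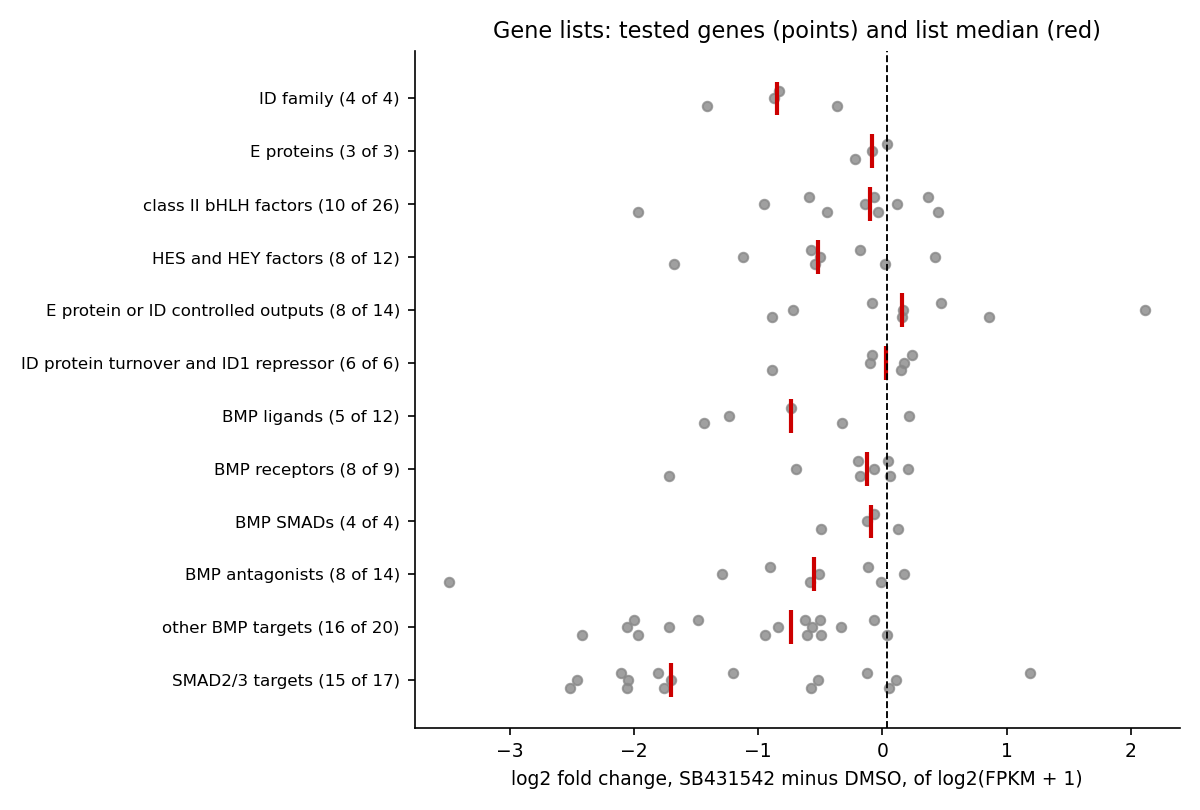
Log2 fold change (SB431542 minus DMSO, log2(FPKM + 1) scale) of every tested gene of each list (points), with the list median in red and the median of all tested genes (0.04) as a dashed line; numbers give the genes tested of the symbols listed. Medians are -0.85 for the ID family, -0.73 for other BMP targets and -1.70 for SMAD2/3 targets.

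Markers of other cell types also differed between the groups. The 7 endothelial markers summed to 1134 and 1073 FPKM in the DMSO libraries and 1182 and 1096 FPKM in the SB libraries. These sums include CLDN5 (121 and 79.4 against 231 and 177 FPKM), the 1 gene with an unadjusted p under 0.05 (4.8% of all tested genes were higher). Within both replicate numbers 4 of the 7 were lower and 2 higher (30.6% and 40.9% of all tested genes). Both SB libraries lay below both DMSO libraries in 1 of the 7 and above them in 2. By contrast, 6 of 6 endoderm and liver markers (159 and 175 against 13.4 and 13.0 FPKM), 6 of 6 mesenchymal markers (288 and 244 against 113 and 110.5 FPKM) and 5 of 5 epithelial markers (239.8 and 235 against 111 and 117 FPKM) were lower in both SB libraries than in both DMSO libraries, as were 16% of all tested genes. So were 6 of 6 erythroid markers (921 and 946 against 575 and 629 FPKM) and the 3 tested of 5 cardiac markers (49.5 and 26.2 against 11.8 and 6.48 FPKM, sums over all 5). The 6 tested of 7 blood markers were higher without overlap (21.5% of all tested genes were; 319 and 293 against 542 and 484 FPKM, sums over all 7), as were the 2 tested of 4 pluripotency markers (43.1 and 51.5 against 66.5 and 77.8 FPKM, sums over all 4). LIN28A made up most of the pluripotency sums (42.6 and 51.0 against 65.2 and 76.0 FPKM). NKX2-5 made up most of the cardiac sums (45.3 and 21.9 against 10.4 and 5.23 FPKM). None of the markers (0 genes) was listed at 0 in all libraries. Their part in the difference of the ID genes was not tested.

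The libraries also differed by replicate number. The first principal component of the tested genes separated replicate 1 from replicate 2 in both groups (47.4% of the variance), and the second (38.7%) separated the treatments. Pearson's r between libraries, across genes that are not independent replicates, was 0.935 to 0.964. Across 14880 genes, the difference between replicates 1 and 2 went with the GC content of the longest transcript (Spearman's rho 0.623 in the DMSO and 0.544 in the SB libraries, given as a description). On the log2(FPKM + 1) scale, TCF3, with 61.2% GC, was 1.5 and 1.16 higher in replicate 1 of the DMSO and SB groups, above the median difference of 0.51 and 0.40 for genes of 60 to 70% GC. ID4, with 47.0% GC, was 1.08 and 0.79 higher in replicate 1, against medians of -0.20 and -0.14 for genes of 40 to 50% GC. The replicate difference was at most 0.31 in size for ID1, ID2 and ID3 (58.6%, 53.3% and 57.2% GC). After the correction for GC content, the log2 fold changes were -1.40 for ID1, -0.87 for ID2, -0.88 for ID3 and -0.42 for ID4. Depth in reads is unknown. Steps of the low values put the shallowest library at 75.5% of the depth of the deepest.

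**Figure D5:**
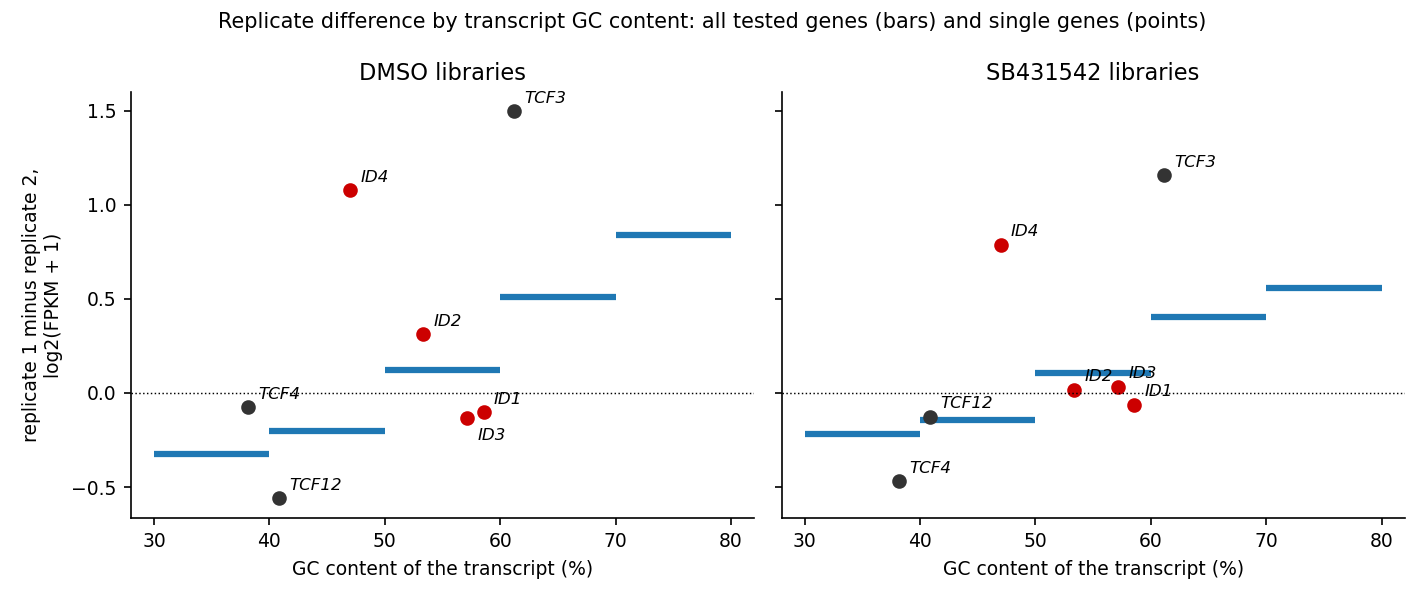
Difference between replicate 1 and replicate 2 in log2(FPKM + 1), for the DMSO (left) and SB431542 (right) libraries, against the GC content of the longest transcript in percent. Blue bars are medians of all tested genes in 5 bins of GC content, the outer 2 being open-ended, red points are ID genes and black points E protein genes; ID4 (1.08 and 0.79) and TCF3 (1.5 and 1.16) lie above the bars, while ID1 and ID3 lie near 0.

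Genes near the ID genes were examined within 100 kb. Of 11 rows near ID1, 3 were tested. BCL2L1, the gene of the survival protein BCL-XL, lies 57937 bases downstream and was higher in both SB libraries (74.1 and 61.8 against 105 and 86.4 FPKM, log2 fold change 0.49, limma adjusted p 0.516). HM13 (0.10) and MCTS2P (0.38) overlapped between the groups. Near ID2, 2 of 5 rows were tested, KIDINS220 (0.01) and the antisense transcript ID2-AS1. ID2-AS1 overlaps ID2 on the other strand and was low, at 0.886 and 1.47 against 0.995 and 0.450 FPKM (-0.34, limma adjusted p 0.812). The sources do not say whether counting used strand. On either strand, the transcripts of ID2-AS1 shared no stretch of 50 bases with those of ID2. The level of ID2-AS1 was at most 1.47 FPKM beside at least 54.7 FPKM for ID2. Near ID3, 1 of 4 rows was tested. This was ASAP3, the gene of an Arf GTPase-activating protein 73350 bases away, at 16.7 and 14.4 FPKM with DMSO and 8.17 and 8.34 FPKM with SB431542 (-0.84, limma adjusted p 0.218). Near ID4, 0 of 1 rows was tested, and that row, AL022068.1, overlaps ID4 and held at most 0.590 FPKM.

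The genes most like each ID gene were taken from 10008 others with a mean of at least 5 FPKM, by the Euclidean distance between log2(FPKM + 1) values centred on each gene's own mean over the 4 libraries. With so few libraries a likeness is a description of 4 values. For ID1 these were VCAN, a matrix proteoglycan gene (distance 0.103; 16.4 and 18.3 against 5.27 and 5.62 FPKM), the kinase gene SGK1 (0.110; 22.9 and 23.4 against 7.75 and 7.55 FPKM) and the protease inhibitor gene SERPINE2 (0.121; 63.2 and 73.1 against 22.8 and 26.1 FPKM). ID3 and ID2 came only at ranks 87 and 134 from ID1, and ID4 at rank 4087. For ID2 they were CORO6 (0.0685), SLC12A4 (0.0759) and ASAP3 (0.0840), the last being the neighbour of ID3. For ID3 they were the tropomyosin gene TPM1 (0.0440; 66.1 and 71.7 against 36.8 and 35.5 FPKM), RAMP2-AS1 (0.0998) and RPGR (0.106). For ID4 they were PACS1 (0.0621), PSD (0.0689) and PLOD3 (0.0704), each of them higher in replicate 1 than in replicate 2 of both groups.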

How the data were processed

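Expression was deposited by the authors as FPKM, that is fragments scaled to transcript length and library size, in 1 table with 1 column per library and 0 columns without a sample. A sequencing company ran the RNA-seq analysis per the study. The submitters' processing notes name BWA, Bowtie, RSEM and hg19 without versions or roles, yet the loci of the table match GENCODE 29 on GRCh38 (95.5% of identifiers have the same version there, 99.97% of these the same position), so GRCh38 is used. Scaling between libraries and strand use are not given in the sources used here. The table holds no counts, so the absolute depth and counting error are unknown, and an exact 0 can be a failed estimate (CD99 is listed at 0 in 4 libraries).

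Values were transformed to log2(FPKM + 1), which understates changes of low genes. Genes with a mean of at least 1 FPKM in a group (14909) were fitted with limma 3.58.1 in R 4.3.3 (empirical Bayes with a trend, group as the only term, all 4 libraries), two-sided, with Benjamini-Hochberg adjustment over all tested genes and a threshold of 0.05. The fit was tested on simulated data with independent noise, which held no effect of replicate number or GC content. The study names Student's t test for comparing groups; limma was used as the test for FPKM. Ratios were compared with exact permutation tests. Where a symbol has several rows, the row with the highest mean was used.

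The members and gene lists were chosen with earlier results of these data known. Named are the ID genes, all tested E proteins, BMP receptors and BMP SMADs, the 2 highest and 2 lowest tested genes of each other list, the 3 genes most like each member, and tested neighbours within 100 kb. A gene that this rule names is not reported here. The ligand BMP2 and the transcript AL022068.1 were named after their values were seen, as were AC104849.1, BMP10, GDF2, CD99 and the marker CLDN5. Motifs were chosen after the data were seen, and RefSeq promoters were matched for 4 of 4 members. Alternatives were other filters, pseudocounts and scalings, the replicate number as a block, the removal of each library and, added after the data were seen, a correction for GC content with and without the block.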

Additional observations from a re-analysis of the deposited data

How the results depend on the processing

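ID1, ID2 and ID3 kept their direction under all 12 alternatives, with log2 fold changes of -1.47 to -1.36 for ID1, -0.99 to -0.68 for ID2 and -0.94 to -0.80 for ID3. Without 1 library they ranged from -1.46 to -1.36, -0.99 to -0.68 and -0.94 to -0.80, and that of ID4 from -0.90 to 0.18. ID4 reversed to 0.18 without DMSO replicate 1 and to 0.03 without SB replicate 2. Among the E proteins, TCF3 reversed to 0.66 and 0.50 without these same libraries, TCF4 to 0.012 without SB replicate 1, and TCF12 to -0.24 without DMSO replicate 1 and -0.025 without SB replicate 2 (ranges -0.83 to 0.66 for TCF3, -0.46 to 0.012 for TCF4 and -0.24 to 0.32 for TCF12). TCF12 also reversed to -0.012 under quantile normalization, -0.0045 under upper-quartile scaling, and -0.026 after GC correction with or without the replicate block. The cause was not tested.

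With the replicate number as a block, ID1 (-1.41, limma adjusted p 0.00209), ID3 (-0.87, 0.00879) and ID2 (-0.83, 0.0155) passed the adjustment and ID4 did not (0.132). With the replicate block and GC correction together, ID1 (-1.40, limma adjusted p 0.00653), ID3 (-0.88, 0.0165) and ID2 (-0.87, 0.0234) passed as well. The labels do not say that the numbers pair the libraries, and 2 pairs are too few to tell; deviations of same-numbered libraries from their group means correlated at 0.528 across genes. The adjusted p ran from 0.00209 to 0.408 for ID1, 0.0155 to 0.817 for ID2 and 0.00879 to 0.760 for ID3 over all alternatives, and without the block it stayed above the threshold for each of them. Genes past the adjustment numbered 20, with 0 and no filter (2739 at an unadjusted p under 0.05), 31 under quantile normalization, 131 after GC correction, 1564 with the replicate block, 1509 with the block and GC correction, and 0 to 14 without 1 library (0 without DMSO replicate 1, 10 without SB replicate 1, 9 without SB replicate 2). THBS1, SOST and TGFBI lost their calls with no filter (limma adjusted p 0.3) and without any 1 library. Of 48 named list genes beside the ID and E protein genes, the 21 with a log2 fold change of at least 0.5 in size kept their direction under every alternative that could be fitted, and 13 of the 27 smaller ones turned under at least 1. The count-based alternative was not run, since the table holds no counts. With the absolute depth unknown, the low levels of ID4 carry an unknown counting error.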
